A study of Homo sapiens with 10 samples.

Results

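The NF-kB pathway and feedback genes described here include the subunits NFKB1, NFKB2 and RELB and the inhibitors NFKBIA and TNFAIP3. The others are the feedback gene BIRC3 and the early targets IER3, TNF, IL1B and ICAM1. The members were taken by gene symbol, from a list drawn up with earlier results of these data known, and 8 of the 10 were found among the 17687 named genes of the array. TNF and BIRC3 were not analysed here. RNA of 4 human myeloid lines was measured on 10 single-colour arrays. OR21 treated cells were HL60 (acute myeloid leukaemia) and K562 (chronic myeloid leukaemia) at 500 nM, and MDSL and SKM1 (both from myelodysplastic syndrome) at 100 nM, all for 96 hours, with 1 array per line. OR21 is the compound OR2100, a hypomethylating agent. The AZA resistant and the OR21 resistant array came from derivatives of HL60 that the labels list as control cells for their treatment, also with a period of 96 hours. Control cells of the same 4 lines, HL60 being the parental line, gave 1 array each. How the derivatives were selected, and whether each is a clone, is not given in the sources used here. MDSL was grown with interleukin 3 and the other lines whose medium is given without it. Both leukaemia lines had the higher dose and both lines from myelodysplastic syndrome the lower, so dose and disease of origin coincide.

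NF-kB is a family of dimeric transcription factors held inactive in the cytoplasm by IkB proteins. Signals from receptors for tumour necrosis factor, interleukin 1 and microbial products activate kinases that mark IkB for degradation, and the freed dimers enter the nucleus and bind kappa-B motifs. Among the first genes they switch on are their own inhibitors, so that the pathway turns itself down. In myeloid cells it drives inflammatory cytokines and chemokines, and its target genes also accompany maturation towards monocytes.

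Promoter sequences are shown for 5 members because NF-kB acts on its target genes through kappa-B motifs and because OR21 acts on DNA methylation, which falls mainly on CpG dinucleotides. RefSeq windows (build GRCh38.p14, 250 bases before and 50 after a transcription start, 300 in all) were at hand for 6 of the 8 measured members, and the 250 bases before the start are printed 5′ to 3′ on the strand of the gene. Capitals mark matches, on either strand, to the kappa-B consensus or to GGAANTTCC, a palindromic relative that can overlap it. Of 35116 such windows of all genes, 11.3% held the kappa-B consensus and 0.965% held GGAANTTCC. The printed stretches lie at chr14:35404750-35404999 (NFKBIA, minus strand), chr6:137867009-137867258 (TNFAIP3, plus strand), chr10:102394328-102394577 (NFKB2, window 2 of 3, plus strand), chr19:10270870-10271119 (ICAM1, plus strand) and chr2:112836780-112837029 (IL1B, minus strand).
NFKBIA: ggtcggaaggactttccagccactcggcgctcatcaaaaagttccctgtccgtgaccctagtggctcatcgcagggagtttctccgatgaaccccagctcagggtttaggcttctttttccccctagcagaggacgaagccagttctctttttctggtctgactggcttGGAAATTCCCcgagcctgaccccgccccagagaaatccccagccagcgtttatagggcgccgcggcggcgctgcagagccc
TNFAIP3: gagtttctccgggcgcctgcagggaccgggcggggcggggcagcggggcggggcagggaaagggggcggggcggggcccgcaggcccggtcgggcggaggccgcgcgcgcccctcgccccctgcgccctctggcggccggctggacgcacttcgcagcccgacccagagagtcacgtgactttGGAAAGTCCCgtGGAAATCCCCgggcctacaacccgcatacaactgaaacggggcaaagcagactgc
NFKB2: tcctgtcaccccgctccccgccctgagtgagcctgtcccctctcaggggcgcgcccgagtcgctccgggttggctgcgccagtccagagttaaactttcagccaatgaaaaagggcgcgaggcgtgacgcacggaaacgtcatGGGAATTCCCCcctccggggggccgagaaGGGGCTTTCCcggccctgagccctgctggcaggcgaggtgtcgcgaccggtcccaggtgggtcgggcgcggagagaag
ICAM1: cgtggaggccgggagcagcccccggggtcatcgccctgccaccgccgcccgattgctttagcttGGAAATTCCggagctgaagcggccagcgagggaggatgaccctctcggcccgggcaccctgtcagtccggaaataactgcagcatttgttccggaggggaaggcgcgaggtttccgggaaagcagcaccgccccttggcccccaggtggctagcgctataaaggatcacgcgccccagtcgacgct
IL1B: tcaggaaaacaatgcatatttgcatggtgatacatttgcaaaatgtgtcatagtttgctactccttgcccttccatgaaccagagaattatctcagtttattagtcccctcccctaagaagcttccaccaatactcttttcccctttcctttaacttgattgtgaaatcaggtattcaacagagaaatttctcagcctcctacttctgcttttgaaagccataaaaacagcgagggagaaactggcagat

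The feedback inhibitors NFKBIA and TNFAIP3 both carried the consensus close to the start, with the first base 81 bases before it in NFKBIA, where GGAANTTCC overlaps it, and, in a pair of matches, 67 and 55 bases before it in TNFAIP3. The NFKB2 window shown held 3 matches, at 107 and 106 bases, which overlap, and at 78 bases; it holds the most of the 3 NFKB2 windows, the others having 0 and 2. NFKB1, whose sequence is not shown, held the consensus at 49 bases and an overlapping GGAANTTCC at 48 in 1 of its 2 windows, and neither in the other. ICAM1 held GGAANTTCC at 186 bases before the start and no match to the consensus. IL1B held neither in this window. CpG dinucleotides numbered 22 in the NFKBIA window, 35 in that of TNFAIP3 and 24 in that of ICAM1, against a median of 14 over all windows. The IL1B window held 2, under the lower quartile of 4. A match describes the letters only.

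The arrays had medians over all genes of 6.63 to 7.05 log2. Hybridisation spikes averaged 11.71 log2 on the OR21 treated HL60 array, above the range of 10.85 to 11.10 on the remaining 9, so each member mean over lines is also given without HL60. The background, taken as the median of 23 background probe sets of an array, was 5.41 to 5.43 log2 on 9 arrays and 4.98 on that of control MDSL. MPO, the myeloperoxidase of granules, lay at 15.97 in OR21 treated and 17.01 log2 in control HL60, and at 15.99 and 17.08 in SKM1. In K562 it lay at 5.28 in OR21 treated and 6.23 in control cells, while the erythroid factor GATA1 lay at 13.29 and 13.14 there. MDSL held MPO at 13.11 in OR21 treated and 8.62 in control cells, and GATA1 at 12.88 and 10.99.

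Across the 4 lines, OR21 treated cells had higher mean levels than control cells for 7 of the 8 measured members, but none of the 8 passed the test over lines. NFKB2, RELB, TNFAIP3 and IL1B were higher in all 4 lines, and TNFAIP3, which encodes the ubiquitin-editing enzyme A20 that shuts off NF-kB signalling, was at least 2-fold higher in each of them. The count past the test was 0 of 8, beside 0.0396% of all genes, in limma with an adjusted p threshold of 0.05. Of all genes, 12.2% were higher in all 4 lines by any size and 0.424% at least 2-fold higher in all 4, which is the background for the 4 members and the 1 member counted above. Without HL60, counted after the data were seen, the same 4 members were higher in all 3 other lines (17.2% of all genes) and TNFAIP3 at least 2-fold higher in all 3 (0.605%). An unadjusted p under 0.05 was reached by 3372 genes, among them the 4 members NFKB2, RELB, TNFAIP3 and IL1B. The median difference of the 8 members was 1.28 log2, against -0.02 for all genes. Each line gave 1 array per condition, so p-values measure the spread between lines.

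**Figure D1:**
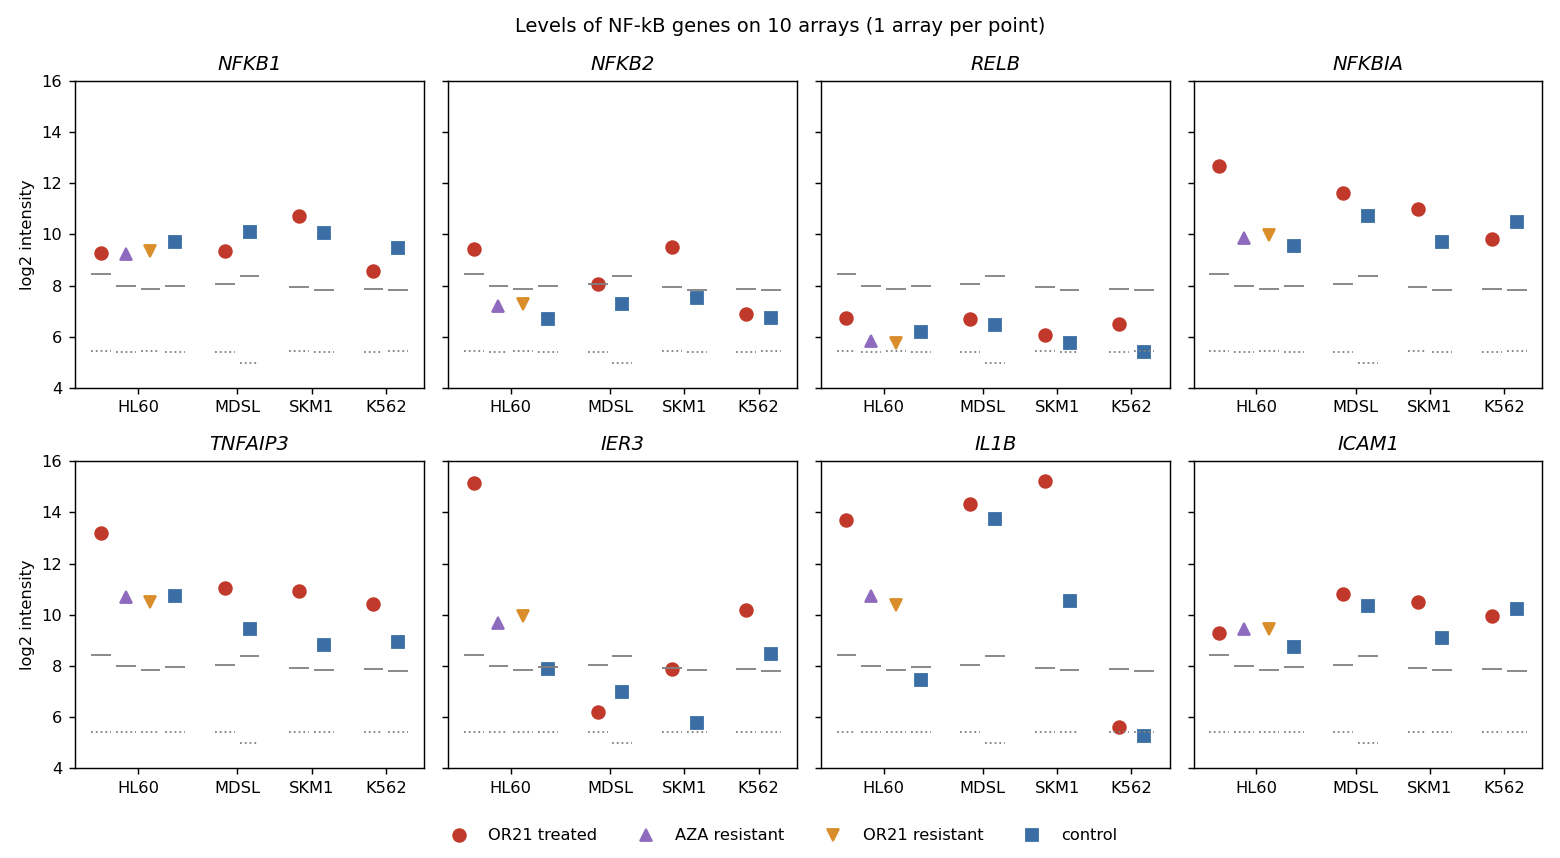
Levels of the 8 measured NF-kB genes, 1 panel a gene, as log2 intensity on 10 arrays (1 array per point, line on the x axis; symbols for OR21 treated, AZA resistant, OR21 resistant and control cells). Dotted bars are the background median of each array and grey bars the 95th percentile of its negative-control probe sets. TNFAIP3 lies higher in OR21 treated than in control cells of every line, and RELB stays under the grey bars on all 10 arrays.

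The inhibitors are described first. TNFAIP3 lay at 13.21, 11.05, 10.92 and 10.42 log2 in OR21 treated HL60, MDSL, SKM1 and K562, against 10.71, 9.43, 8.82 and 8.95 in their controls. Every treated value lay above its own control, although the groups overlapped because control HL60 was above treated K562. The mean was 11.40 in OR21 treated and 9.48 in control cells, a difference of 1.92 ± 0.47 log2 (SD, n = 4 lines, 95% interval 1.37 to 2.46). Its adjusted p in limma was 0.0906, short of the threshold, and it ranked 19 by p among the 17687 genes. After scaling to the hybridisation spikes it was 0.0134, with a difference of 1.79 log2. HL60 differed 5.63-fold, MDSL 3.07-fold, SKM1 4.29-fold and K562 2.77-fold. Without HL60 it averaged 1.73 log2. Of all genes, between 1.76% and 2.80% had a larger difference in each of the 4 lines.

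NFKBIA encodes IkB alpha, the inhibitor that is resynthesised after each round of activation. It lay at 12.66, 11.62, 10.98 and 9.83 log2 in OR21 treated HL60, MDSL, SKM1 and K562, against 9.53, 10.73, 9.70 and 10.50 in their controls. Treated values were higher in HL60, MDSL and SKM1 and lower in K562, and the groups overlapped. The treated level was 8.71-fold higher in HL60, 1.84-fold in MDSL and 2.43-fold in SKM1, while K562 had a 1.59-fold lower one. The mean difference was 1.15 ± 1.56 log2 (SD, n = 4 lines; limma adjusted p = 0.324), and 0.50 without HL60. Leaving out HL60 moved this mean by more than 1.5 times, and leaving out K562 moved it to 1.76.

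The 3 subunits differed among themselves. NFKB2 encodes p100, the precursor of p52 in the alternative pathway. Its levels were 9.44, 8.07, 9.50 and 6.88 log2 in OR21 treated HL60, MDSL, SKM1 and K562, against 6.69, 7.29, 7.51 and 6.74 in their controls. All 4 treated values exceeded their own controls, and the treated K562 value lay within the control range. HL60 differed 6.73-fold, MDSL 1.71-fold, SKM1 3.96-fold and K562 1.10-fold, with a mean of 1.41 ± 1.17 log2 (SD, n = 4 lines; limma adjusted p = 0.172), and 0.97 without HL60. In K562 the difference was 0.14 log2 as deposited, and 0.00 after median centring or quantile normalization. On 7 of the 10 arrays NFKB2 lay under the 95th percentile of the negative-control probe sets of that array.

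NFKB1 encodes p105, the precursor of p50 in the canonical dimer. It lay at 9.28, 9.36, 10.72 and 8.58 log2 in OR21 treated HL60, MDSL, SKM1 and K562, against 9.70, 10.11, 10.05 and 9.48 in their controls. It was the 1 member with a lower mean in OR21 treated cells, being lower in HL60, MDSL and K562 and higher in SKM1. The mean difference was -0.35 ± 0.71 log2 (SD, n = 4 lines; limma adjusted p = 0.566). It was -0.32 without HL60, -0.21 without MDSL, -0.69 without SKM1 and -0.16 without K562.

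RELB, which pairs with p52, lay at 6.71, 6.70, 6.07 and 6.49 log2 in OR21 treated HL60, MDSL, SKM1 and K562, against 6.17, 6.47, 5.74 and 5.40 in their controls. Every treated value was above its own control, but all 10 arrays were under the 95th percentile of their negative-control probe sets, and the K562 control was at background. The mean difference was 0.55 ± 0.39 log2 (SD, n = 4 lines; limma adjusted p = 0.230), and 0.55 without HL60. In HL60 the difference was 0.55 as deposited and -0.22 after scaling to the hybridisation spikes. With values under background raised to it, the K562 difference was 1.07.

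Among the early targets, IER3 and IL1B had the largest SD over lines of the 8 members, and ICAM1 did not. IER3, an immediate early gene that acts in cell survival, lay at 15.14, 6.18, 7.86 and 10.17 log2 in OR21 treated HL60, MDSL, SKM1 and K562, against 7.89, 6.99, 5.78 and 8.47 in their controls. The treated HL60 value stood far above all others, MDSL went the other way, and the groups overlapped. The difference was 152-fold in HL60, where 7 genes had a larger one, 4.23-fold in SKM1 and 3.27-fold in K562, and the level in treated MDSL was 1.75-fold lower. Control HL60 and both arrays of MDSL and SKM1 lay under the 95th percentile of their negative-control probe sets. The HL60 size therefore rests on a dim control, and the MDSL and SKM1 sizes on dim values in both arrays. Both K562 arrays lay above that level. The mean was 2.56 ± 3.38 log2 (SD, n = 4 lines; limma adjusted p = 0.299), and 0.99 without HL60.

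IL1B, the precursor of interleukin 1 beta and so both a target and a ligand of the pathway, lay at 13.70, 14.34, 15.23 and 5.59 log2 in OR21 treated HL60, MDSL, SKM1 and K562. The controls were at 7.43, 13.75, 10.54 and 5.26. Control MDSL was already close to its treated value, and both K562 values were near background, the control under it. Control HL60 was also under the 95th percentile of its negative-control probe sets. The treated level was 77.4-fold higher in HL60 and 25.8-fold higher in SKM1, with 22 and 47 genes showing a larger difference there, and 0.58 log2 higher in MDSL. The mean was 2.97 ± 2.97 log2 (SD, n = 4 lines; limma adjusted p = 0.201), and 1.87 without HL60. After scaling to the hybridisation spikes the limma adjusted p was 0.0438.

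ICAM1, an adhesion molecule for leukocytes, lay at 9.29, 10.82, 10.48 and 9.93 log2 in OR21 treated HL60, MDSL, SKM1 and K562, against 8.75, 10.34, 9.08 and 10.23 in their controls. It was higher in treated HL60, MDSL and SKM1 and lower in treated K562, and 1.40 log2 in SKM1 was the 1 difference past 2-fold. The mean difference was 0.53 ± 0.69 log2 (SD, n = 4 lines; limma adjusted p = 0.373), with 0.53 without HL60, 0.24 without SKM1 and 0.80 without K562. In HL60 the difference was 0.54 as deposited and -0.22 after scaling to the hybridisation spikes.

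**Figure D2:**
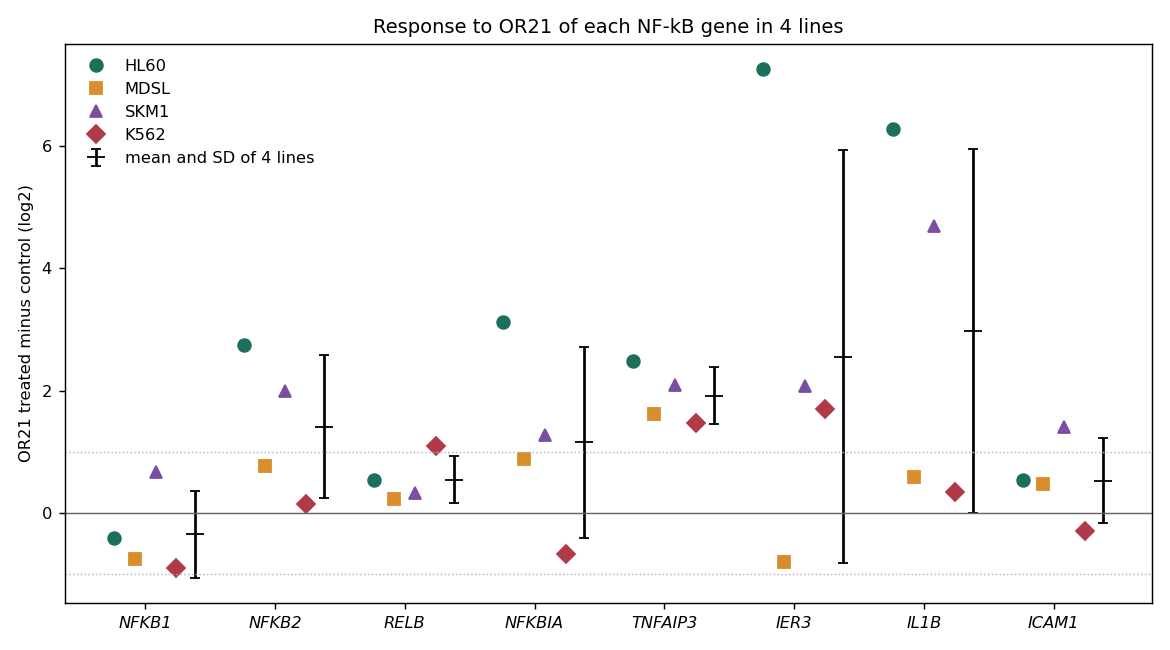
Difference between OR21 treated and control cells for each of the 8 measured NF-kB genes, in log2, with 1 symbol per line and the mean with its SD over 4 lines beside them. Dotted lines mark a 2-fold difference. The 4 TNFAIP3 points lie between 1.47 and 2.49, while those of IER3 run from -0.81 to 7.25.

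Line by line, each comparison set 1 array against 1, so the counts describe these arrays and have no test. At least 2-fold higher in OR21 treated cells were 5 of 8 members in HL60 (10.2% of all genes), 6 in SKM1 (7.1%), 3 in K562 (5.05%) and 1 in MDSL (6.62%). At least 2-fold lower were 0 of 8 in HL60 (11.1% of all genes), MDSL (4.88%), SKM1 (4.47%) and K562 (3.86%). The median member difference was 2.62 log2 in HL60, 1.69 in SKM1, 0.53 in MDSL and 0.24 in K562, with all-gene medians between -0.05 and 0.00. HL60 and SKM1 shared NFKB2, NFKBIA, TNFAIP3, IER3 and IL1B past 2-fold, and SKM1 added ICAM1. The members past 2-fold in K562 were TNFAIP3, IER3 and, from a control at background, RELB. In MDSL it was TNFAIP3.

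Whether the response differed between the 500 nM lines (HL60 and K562) and the 100 nM lines (MDSL and SKM1) was tested as an interaction in limma. It called 0 of 8 members and 0% of all genes, with 968 genes at an unadjusted p under 0.05. Member adjusted p-values ran between 0.882 and 0.995. For TNFAIP3 the response in the 500 nM lines minus that in the 100 nM lines was 0.12 log2 (95% interval -1.10 to 1.35). For IER3 it was 3.84 (-1.05 to 8.73) and for IL1B 0.67 (-4.96 to 6.30), so the intervals hold large differences in either direction. Dose and the origin of the lines cannot be told apart here.

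The resistant derivatives of HL60 lay close to the parental control for both feedback inhibitors. TNFAIP3 lay at 10.68 log2 in AZA resistant, 10.51 in OR21 resistant and 10.71 in parental control cells. NFKBIA lay at 9.88 in AZA resistant and 9.97 in OR21 resistant cells, against 9.53 in parental control cells. The derivatives were within 0.21 log2 of the parental control for TNFAIP3 and within 0.44 for NFKBIA. OR21 treated HL60, compared with the same control array, was 2.49 log2 higher for TNFAIP3 and 3.12 higher for NFKBIA.

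IER3 and IL1B were the 2 members at least 2-fold higher in the derivatives. IL1B lay at 10.74 log2 in AZA resistant and 10.39 in OR21 resistant cells, against 7.43 in parental control cells, which is 9.89-fold and 7.77-fold higher. IER3 lay at 9.69 in AZA resistant and 9.96 in OR21 resistant cells, against 7.89 in parental control cells, which is 3.48-fold and 4.20-fold higher. OR21 treated parental cells, at 13.70 for IL1B and 15.14 for IER3, were above both derivatives.

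The other members differed less. ICAM1 lay at 9.44 in AZA resistant and 9.45 in OR21 resistant cells, against 8.75 log2 in parental control cells. NFKB2 lay at 7.19 and 7.27 in the AZA and the OR21 resistant derivative, under the 95th percentile of the negative-control probe sets, against 6.69 in parental control cells. NFKB1 was 0.45 log2 lower in the AZA resistant and 0.33 lower in the OR21 resistant derivative, and RELB 0.35 and 0.43 lower, with RELB near background. Members at least 2-fold higher than in the parental control numbered 2 of 8 in AZA resistant cells (7.04% of all genes) and 2 of 8 in OR21 resistant cells (7.69%). At least 2-fold lower were 0 of 8 in AZA resistant (5.11% of all genes) and 0 of 8 in OR21 resistant cells (4.27%). The member medians were 0.42 and 0.51 log2, against -0.02 and -0.07 for all genes.

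Between the derivatives, OR21 resistant and AZA resistant cells were close for every member. Differences ran from -0.35 log2 for IL1B to 0.27 for IER3, with a median of 0.04. None of the 8 was at least 2-fold higher (0.678% of all genes) or at least 2-fold lower (0.888%) in OR21 resistant cells. There was 1 array of each, so the spread within a derivative is not known.

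**Figure D3:**
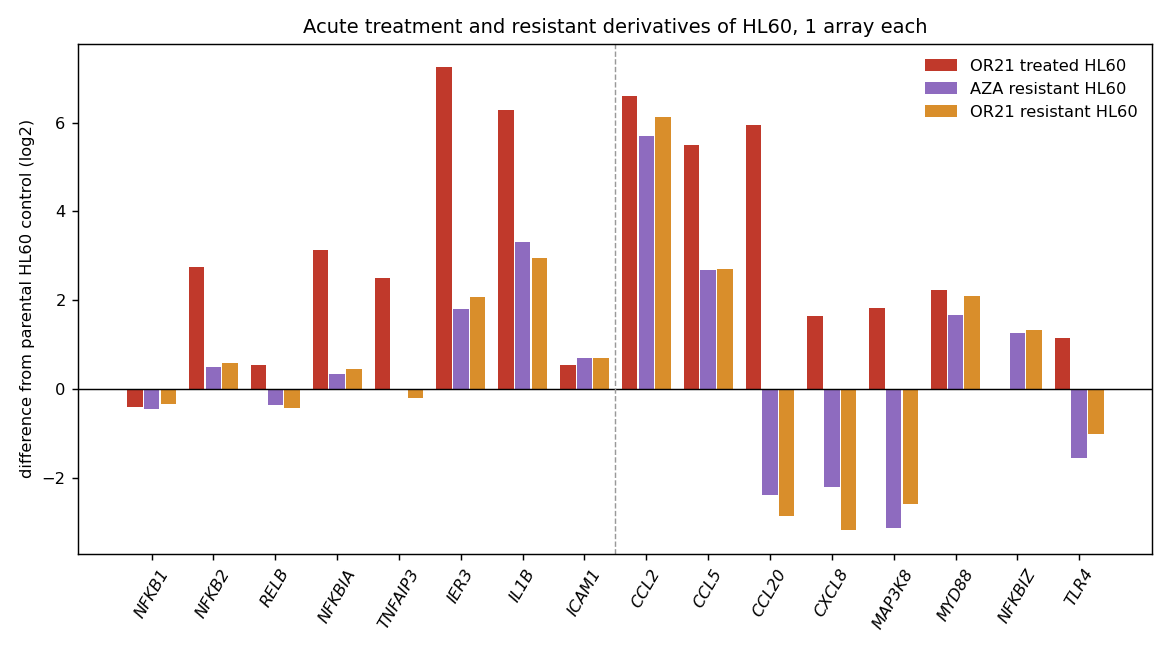
Difference from the parental HL60 control, in log2, of OR21 treated, AZA resistant and OR21 resistant HL60 (1 array each, left to right within each gene) for the 8 measured NF-kB genes and, right of the dashed line, 8 other pathway genes. Bars start at 0, and all 3 differences share 1 control array. NFKBIA reaches 3.12 in OR21 treated cells and at most 0.44 in the derivatives. CCL20, CXCL8, MAP3K8 and TLR4 lie above 0 in OR21 treated cells and under 0 in both derivatives, where CCL20 was under background on both arrays and MAP3K8 on that of AZA resistant cells.

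Other pathway genes were taken from 6 lists with 85 genes, of which 73 were measured. None of the 73 passed the limma test over the 4 lines. The smallest adjusted p among them was 0.122, for CYLD, a deubiquitinase that restrains the pathway. At least 2-fold higher in OR21 treated cells were 31 of 73 in HL60 (42.5%, beside 10.2% of all genes), 21 in SKM1 (28.8%, beside 7.1%), 14 in MDSL (19.2%, beside 6.62%) and 4 in K562 (5.48%, beside 5.05%). At least 2-fold lower were 0, 0, 3 and 2 in the same lines, beside 11.1%, 4.47%, 4.88% and 3.86% of all genes. The list medians were 0.68, 0.57, 0.18 and 0.00 log2. These lists were drawn up with earlier results of these data known.

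Among the ubiquitin editors and other brakes, CYLD lay at 9.91, 10.05, 8.61 and 6.13 log2 in OR21 treated HL60, MDSL, SKM1 and K562. Its controls were at 8.01, 8.51, 6.37 and 5.77, a mean difference of 1.51 ± 0.82 (SD, n = 4 lines). TNIP1, a partner of A20, was higher in all 4 lines by 1.12 ± 0.58 log2 (limma adjusted p = 0.125), and the ubiquitin ligase ITCH, another partner, by 0.73 ± 0.54 (limma adjusted p = 0.193), which was 0.48 without HL60. OTULIN, which removes linear ubiquitin chains, was lower in all 4 lines, by a mean of -0.52 ± 0.33 log2 (limma adjusted p = 0.230).

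Of 28 measured other target genes, 18 were at least 2-fold higher in OR21 treated HL60 (64.3%, beside 10.2% of all genes), 13 in SKM1 (46.4%, beside 7.1%), 9 in MDSL (32.1%, beside 6.62%) and 1 in K562 (3.57%, beside 5.05%). The monocyte-attracting chemokine CCL2 lay at 15.25, 12.32, 13.27 and 4.64 log2 in OR21 treated HL60, MDSL, SKM1 and K562, against 8.66, 5.78, 5.14 and 5.73 in their controls. It was much higher in 3 lines and under background in treated K562 and control SKM1. The protease gene MMP9 lay at 15.25 in OR21 treated and 5.94 in control HL60, and at 13.28 and 6.75 in SKM1, while MDSL was at 6.04 in both. CCL20, another chemokine, lay at 13.23 in OR21 treated and 7.28 in control HL60, and at 11.88 and 7.10 in SKM1. Limma adjusted p-values over the 4 lines were 0.155 for CCL2, 0.282 for MMP9 and 0.161 for CCL20. The MMP9 mean difference was 3.82 log2, and 1.99 without HL60.

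Of 10 measured kinases and adaptors, 3 were at least 2-fold higher in OR21 treated HL60, 2 in MDSL and none in SKM1 or K562. The same counts were 4, 1, 3 and 1 for 17 receptors and adaptors in HL60, MDSL, SKM1 and K562. For 12 ubiquitin editors and other brakes, not all of them inhibitors, they were 4, 2, 3 and 2. Likewise 1 of 2 other Rel subunits and 1 of 4 other IkB proteins passed 2-fold in HL60 and in SKM1, and 0 in MDSL and K562. Of all genes, 10.2% passed it in HL60, 7.1% in SKM1, 6.62% in MDSL and 5.05% in K562, and the 1 receptor in MDSL and the 1 in K562 (5.88% each) were near them. The catalytic kinases CHUK and IKBKB were lower in all 4 lines, by means of -0.45 ± 0.41 and -0.40 ± 0.22 log2 (limma adjusted p = 0.313 and 0.288), CHUK by -0.28 without K562. RELA, the p65 subunit, differed by 0.23 ± 0.64 and REL by 0.63 ± 0.54 log2 (limma adjusted p = 0.696 and 0.236), RELA by 0.04 without SKM1 and 0.06 without MDSL, and by 0.39 without HL60 and 0.44 without K562. The receptor adaptor MYD88 was higher in all 4 lines by 1.39 ± 0.95 log2 (limma adjusted p = 0.140). The interleukin 1 receptor IL1R1 was higher by a mean of 1.32 ± 1.33 log2 (limma adjusted p = 0.220), which was 0.70 without HL60. In MDSL the IL1R1 difference was only 0.02 log2, and in control SKM1 IL1R1 lay under background. TNFRSF1A, a receptor for tumour necrosis factor, was lower in 3 of 4 lines, by a mean of -0.52 ± 0.59 (limma adjusted p = 0.332). Its difference was only -0.08 log2 in HL60, against -1.02 in MDSL and -1.03 in K562. At least 2-fold lower were 2 of the 17 receptors and adaptors in MDSL (4.88% of all genes) and 1 in K562 (3.86%). The IkB relative NFKBIE was higher in all 4 lines by 0.66 ± 0.46 log2 (limma adjusted p = 0.198), while NFKBIZ differed by -0.03 ± 0.30.

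**Figure D4:**
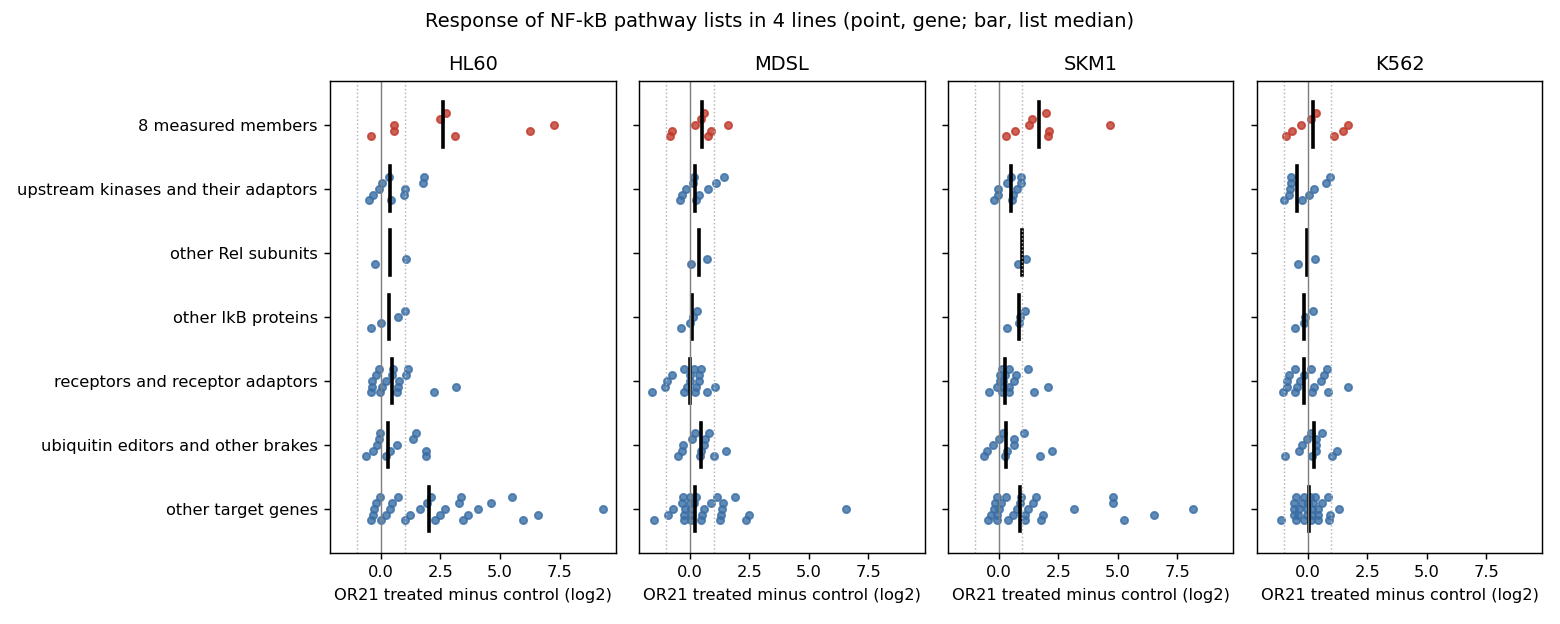
Difference between OR21 treated and control cells in log2 (x axis) for the 8 measured members (top row) and 6 lists of other pathway genes, in 1 panel per line. Points are genes, the black bar is the list median, and dotted lines mark 2-fold. Other target genes reach 9.31 in HL60 and 8.14 in SKM1, while in K562 all lists lie between -1.10 and 1.71.

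In the resistant derivatives, 9 of the 73 passed 2-fold upward and 8 downward in AZA resistant cells, beside 7.04% and 5.11% of all genes, which is 12.3% and 11% of the 73. In OR21 resistant cells 12 and 8 did so, which is 16.4% and 11%, beside 7.69% and 4.27%. CCL2 lay at 14.37 log2 in AZA resistant and 14.79 in OR21 resistant cells, against 8.66 in parental control cells. CCL5 lay at 12.23 and 12.24, against 9.55. Other chemokines went the opposite way: CXCL8 lay at 10.66 in AZA resistant and 9.69 in OR21 resistant cells, against 12.87 in parental control cells, and at 14.53 in OR21 treated HL60. CCL20 lay at 4.90 and 4.41 in the 2 derivatives, under background, against 7.28 in parental control cells. The kinase gene MAP3K8 lay at 4.88 in AZA resistant cells, under background, and at 5.43 in OR21 resistant cells, just above the 5.42 of that array, against 8.01 in parental control cells and 9.83 in OR21 treated HL60. MYD88 was 1.66 log2 higher in AZA resistant and 2.09 higher in OR21 resistant cells than in parental control cells. NFKBIZ, at 0.01 log2 under the control in OR21 treated HL60, was 1.27 and 1.33 higher in the AZA and OR21 resistant derivatives, and BIRC2, a ubiquitin ligase of the pathway, 1.25 and 1.48 higher.

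Monocyte and macrophage markers also differed between these arrays. Of 9 measured, 6 were at least 2-fold higher in OR21 treated HL60, 4 in SKM1, 2 in MDSL and none in K562, beside 10.2%, 7.1%, 6.62% and 5.05% of all genes. In K562, 1 of 9, VCAN, was at least 2-fold lower. In AZA resistant HL60 4 of 9 and in OR21 resistant HL60 6 of 9 were at least 2-fold higher, beside 7.04% and 7.69%. The median differences were 2.66, 0.54, 0.77 and 0.27 log2 in OR21 treated HL60, MDSL, SKM1 and K562, and 0.92 and 2.48 in AZA resistant and OR21 resistant cells. The summed marker level, as log2 of the sum, ran from 13.20 to 18.34 in OR21 treated and 12.30 to 17.74 in control cells. It was 18.08 in AZA resistant and 18.12 in OR21 resistant cells. LYZ made up most of the sum on every array, so the sum says little of the other markers. In HL60, LYZ alone lay at 18.14 in OR21 treated and 17.71 in control cells, against sums of 18.34 and 17.74. CD14, the co-receptor for lipopolysaccharide on monocytes, lay at 14.60 in OR21 treated HL60, 8.01 in AZA resistant and 10.70 in OR21 resistant cells, against 7.64 in parental control cells. S100A12 was under background in control HL60 and in 5 other arrays. T lymphocyte markers were at least 2-fold higher for 4 of 5 in OR21 treated HL60 (10.2% of all genes). In MDSL (6.62%), SKM1 (7.1%) and AZA resistant cells (7.04%) 1 of 5 was. In K562 1 of 5, CD3D, was at least 2-fold lower (3.86%). CD3G was under background on all 10 arrays, and the summed T lymphocyte level was 8.61 in OR21 treated against 6.99 in control HL60. Across all arrays that sum ran from 7.87 to 8.93 in OR21 treated cells, was 7.60 in AZA resistant and 7.07 in OR21 resistant cells, and ran from 6.99 to 9.26 in control cells. Of 5 early myeloid and granule markers, 3 were at least 2-fold lower in OR21 treated HL60 (11.1% of all genes) and 2 in SKM1 (4.47%). In each derivative 2 were, beside 5.11% of all genes in AZA resistant and 4.27% in OR21 resistant cells. At least 2-fold higher were 1 in MDSL (MPO, beside 6.62% of all genes) and 1 in K562 (CEBPA, beside 5.05%). CEBPA lay at 4.59 in control K562, under background, and at 5.67 in OR21 treated K562. Of 4 erythroid markers 3 were at least 2-fold higher in OR21 treated MDSL (6.62% of all genes), 1 in SKM1 (7.1%) and 1 in K562 (5.05%). In MDSL, ALAS2 and KLF1 lay under the 95th percentile of the negative-control probe sets on both arrays, with ALAS2 under background in control cells. Of 6 endothelial and fibroblast markers 1, COL1A1, passed 2-fold, in K562 (5.05% of all genes), and of 4 B lymphocyte markers 0 did. In these bulk cultures more cells of a type and more RNA per cell cannot be told apart, and the part of these markers in the results was not tested.

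Likeness to the feedback inhibitors was described over the 10 arrays, which share 4 lines and include 4 arrays of HL60, among 8028 genes. These had a mean at or above the median of all genes and a range of at least 1 log2. Members, other pathway genes and markers were left out beforehand, so none of them could rank among the most like. The genes most like TNFAIP3 by Pearson correlation of log2 levels were HSBP1L1 (r = 0.94), LASP1 (0.94), FPR1 (0.93), APAF1 (0.91) and TANK (0.91). Those most like NFKBIA were BMF (0.95), RBM23 (0.95), CCDC69 (0.94), ATP6V0D1 (0.94) and CPPED1 (0.94). FPR1, the formyl peptide receptor of phagocytes, was 6.99, 2.90, 4.43 and 0.70 log2 higher in OR21 treated HL60, MDSL, SKM1 and K562, and TANK, an adaptor of TRAF proteins, 1.29, 0.91, 1.26 and 0.72 higher. Among the members, NFKB2 and IL1B correlated at r = 0.78, NFKB2 and NFKBIA at 0.78, and TNFAIP3 and IER3 at 0.74, over the same 10 arrays. NFKB1 and TNFAIP3 had r = -0.24, and IER3 and IL1B -0.03.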

How the data were processed

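Biotin-labelled total RNA of 10 samples was hybridised to single-colour arrays. The deposited values were linear intensity values per probe set; how they were background-corrected, normalized or centred, and with which software, is not given in the sources used here. They were put on log2 with no pseudocount. The table held 24351 rows, of which 17709 had 1 gene symbol in the platform annotation, 0 had several and 6642 had none. For 20 genes with several probe sets the brightest was kept, which left 17687 genes. RefSeq identifiers updated 0 symbols. Arrays give no read depth, so their number limits the precision.

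OR21 treated and control arrays of the 4 lines (8 arrays) were compared with limma 3.58.1 in R 4.3.3 (lmFit and eBayes, cell line as a block because both arrays of a pair came from the same line, two-sided, Benjamini-Hochberg adjustment over all genes, threshold 0.05). An interaction term set the 500 nM lines against the 100 nM lines. Single-line and resistant comparisons had 1 array per condition, so genes at least 2-fold apart were counted, with no test. Background was the median of 23 background probe sets per array, and the stricter level was the 95th percentile of 612 negative-control probe sets. The members, lists and tests were chosen with earlier results of these data known. The rule named all members, up to 3 genes with the largest rise and 2 with the largest fall per list over the 4 lines, up to 2 each way per resistant derivative, core kinases and subunits. For TNFAIP3 and NFKBIA it also named the 5 genes most like them, among genes outside the members and lists. Other lists held markers of monocytes, early myeloid and granule cells, erythroid cells, endothelial cells and fibroblasts, and T and B lymphocytes. The fit was tested on simulated data. Alternatives were quantile normalization, median centring, scaling to hybridisation spikes, a floor at background, log2(intensity + 16), leaving out dim genes, the mean of probe sets, no block and leaving out each line. Promoter windows came from RefSeq (GRCh38.p14).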

Additional observations from a re-analysis of the deposited data

Results flagged for a closer look

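Among the 24 groups of 4 arrays examined, 8 members in OR21 treated and in control cells and the differences between them, 1 held an array far from the others. IL1B in OR21 treated cells was at 5.59 log2 in K562, against 13.70 in HL60, 14.34 in MDSL and 15.23 in SKM1. The gap to the nearest of the others was 0.842 of the whole range, above Dixon's 95% critical value for 4 samples. Chance gives about 1 such group in 20.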

How the results depend on the processing

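The mean differences of the 8 members kept their direction under all 12 alternatives. Among these, the mean of probe sets, leaving out dim genes and dropping the block could not move a member mean, so their agreement carries no weight. TNFAIP3 ranged from 1.73 to 2.07 log2 and IL1B from 1.87 to 3.85 when a line was left out. Scaling to hybridisation spikes put 2 members past the test, TNFAIP3 (1.79 log2, limma adjusted p = 0.0134) and IL1B (2.84 log2, limma adjusted p = 0.0438), and under the other alternatives the count stayed at 0. Over the 12 alternatives the limma adjusted p ran from 0.0134 to 0.982 for TNFAIP3 and from 0.0438 to 0.988 for IL1B. The upper ends came from the fit with no block, which ignores the pairing within lines. With the block kept the highest limma adjusted p was 0.327 for TNFAIP3 and 0.476 for IL1B, both without SKM1. The same scaling moved the median of all genes in HL60 from -0.05 to -0.81 log2 and put 1 member, NFKB1, at least 2-fold lower in HL60. Median centring put 1 member, NFKB1, at least 2-fold lower in K562. The count at least 2-fold higher in K562 went from 3 to 2 under median centring and under log2(intensity + 16). No other count of members moved by over 1.5 times.

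Genes past the test numbered 7 in the main setting, 240 with spike scaling (171 higher and 69 lower), 3 with the floor or with log2(intensity + 16), 1 with no replicate block, 1 without HL60, 5 without MDSL, 2 without K562 and 0 without SKM1 (2181 by unadjusted p under 0.05). The interaction called 18 genes with spike scaling and 0 in the main setting. Genes at least 2-fold higher and lower numbered 1802 and 1962 in HL60 as deposited, 796 and 6721 with spike scaling and 1481 and 2574 with median centring. Median centring gave 1001 and 1210 against 1255 and 791 in SKM1, 682 and 1046 against 893 and 682 in K562, 1014 and 1377 against 1246 and 903 in AZA resistant cells, and 1139 and 1149 against 1361 and 756 in OR21 resistant cells. Spike scaling gave 1155 and 470 in K562. TNFAIP3 in AZA resistant cells was 0.07 log2 above the parental control with quantile normalization and -0.03 as deposited. The cause of these shifts was not tested. With the cell line block removed, no member passed the test.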
